A study of Mus musculus with 18 samples.

Results

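The miR-181 family comprises the mature mouse miRNAs mmu-miR-181a-5p, mmu-miR-181b-5p, mmu-miR-181c-5p and mmu-miR-181d-5p, written below without the species prefix, the arms cut from the 5′ side of their hairpins. The 4 were taken by name from the array's annotation and are 4 of 1265 miRNA probes, each with 1 spot per array. The samples were splenic B cells of 2 transgenic founder lines, Tg79 and Tg9, and of wild-type mice (WT), with 3 miRNA arrays per group. Tg79 and Tg9 carry miR-17~92, a cluster of growth-promoting miRNAs, driven by the Eμ enhancer and the immunoglobulin heavy-chain promoter so that it acts in B cells, and WT carries no transgene. Age and strain are not given in the sources used here. The B cells were purified from the spleen on magnetic beads (MACS), and total RNA was labelled with the dye Cy5. The study's design text counts 3 transgenic mice over both founder lines and 3 wild-type mice, while 6 transgenic arrays were used. The labels do not tie an array to a mouse, so transgenic arrays may outnumber mice. Each n is a number of arrays, and the SEs and p-values measure the spread between arrays, which may be technical in part.

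A miRNA directs the Argonaute protein to mRNAs that pair with its seed, the bases near its 5′ end, and the mRNA is then repressed. In thymocytes miR-181a lowers several phosphatases that dampen T cell receptor signalling and so raises sensitivity to antigen. In the B lineage forced expression of miR-181a in blood progenitors increases the output of B cells, and miR-181b can repress activation-induced deaminase, the enzyme of class switching.

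The sequences are shown because members that share most of their bases may be hard for a hybridisation probe to tell apart. They are from RefSeq (mouse build GRCm38.p6), 5′ to 3′, with the seed (bases 2 to 8) in capitals.
miR-181a-5p: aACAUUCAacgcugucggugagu
miR-181b-5p: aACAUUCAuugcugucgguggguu
miR-181c-5p: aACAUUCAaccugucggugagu
miR-181d-5p: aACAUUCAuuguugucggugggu

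The 4 members have 1 seed, and no other of the 1679 mature mouse miRNAs in that table has it. The family comes from 3 pairs of hairpins. Mir181a-1 and Mir181b-1 lie on the plus strand of chromosome 1, with their 5p arms at chr1:137966468-137966490 and chr1:137966650-137966673. Mir181a-2 and Mir181b-2 lie on the plus strand of chromosome 2, at chr2:38852741-38852763 and chr2:38853845-38853868, and give the same mature miR-181a-5p and miR-181b-5p. Mir181c and Mir181d lie on the minus strand of chromosome 8, at chr8:84178924-84178945 and chr8:84178759-84178781. The starts of the 5p arms are 182, 1104 and 165 bases apart in the 3 pairs.

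Similarity of sequence does not follow the clusters. MiR-181a-5p and miR-181c-5p share 22 bases in an alignment with 1 gap base and no substitution. MiR-181b-5p and miR-181d-5p share 22 bases and differ by 1 gap base and C12U, with positions counted from the 5′ end and the base of miR-181b-5p first. Within the clusters the members are less alike. MiR-181a-5p and miR-181b-5p have 20 bases in common and differ by A9U, C10U and A21G with 1 gap base. MiR-181c-5p and miR-181d-5p have 18 in common. The sequences of the array's probes were not analysed here, and binding of one member to another's probe was not tested.

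A probe was taken as measured where its intensity exceeded a limit, set at the 95th percentile of that array's 24 negative controls. It was tested if it did so on at least 3 of 9 arrays, which held for 501 of 1265 probes and for 4 of 4 members. The transgene was read first. MiR-17-5p had a log2 intensity of 13.12, 13.54 and 13.25 on the Tg79 arrays, and 13.25, 10.60 and 10.86 on Tg9 arrays 1 to 3, against 10.26, 10.57 and 10.34 on the WT arrays. The arrays labelled Tg9-2 and Tg9-3 thus lay near WT in the transgene's own product. The Tg79 arrays share slide 2 with WT2 and the Tg9 arrays share slide 1 with WT1, while WT3 is on slide 3. Of all miRNA probes 24.4% to 32.3% exceeded the limit in Tg79, 33% to 42.6% in Tg9 and 35.1% to 40.8% in WT, so fewer probes were measured on Tg79 arrays.

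The B cell miRNAs miR-150-5p, miR-142-3p and miR-155-5p were above the limit on all 9 arrays, with a mean log2 intensity of 9.73 to 10.32 in Tg79, 10.28 to 10.79 in Tg9 and 10.40 to 10.98 in WT. This mean holds members that went opposite ways in Tg79 minus WT, with log2 differences of -2.001 for miR-150-5p, -1.07 for miR-142-3p and 1.52 for miR-155-5p. Each of these 3 was at an unadjusted p under 0.05 and limma called 0 of them (adjusted p 0.175, 0.0911 and 0.179). Of 9 marker miRNAs of myeloid, erythroid, endothelial and stromal cells, 6 were tested and limma called 0 in any comparison. At an unadjusted p under 0.05 was 1 in Tg79 minus WT, endothelial miR-126-3p, and 0 in the other comparisons. Its log2 difference was 0.43, with every Tg79 array above every WT array. The tested erythroid and stromal markers were also positive there (0.19 to 0.32), and only miR-223-3p was lower. In Tg9 minus WT miR-451a, of erythroid cells, was higher without overlap (0.61, limma adjusted p = 0.99). The myeloid marker miR-223-3p was at 6.21 to 6.69 in Tg79 and 6.57 to 9.10 in Tg9, against 7.16 to 7.64 in WT, so every Tg79 array lay below every WT array (log2 difference -0.98 ± 0.56 SE, limma adjusted p = 0.32). Of all tested miRNAs 13% were higher and 16.4% lower in Tg79 than in WT without overlap. The summed intensity of the 9 markers was 653 to 923 in Tg79, 826 to 1289 in Tg9 and 720 to 811 in WT. MiR-223-5p and miR-144-3p were above the limit on no array. The part of other cells in the values of the members was not tested. In bulk RNA of this kind, fewer cells of a type and less RNA per cell cannot be told apart.

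MiR-181b-5p and miR-181d-5p, 1 member from each cluster type, were called higher in Tg79 than in WT. Over 25 alternative settings the count of called members stayed at 2 in 11 and changed in 14. It was 0 with slide as a factor (limma adjusted p = 0.53 for each). In that fit Tg79 is compared with WT2 alone, the only WT array on its slide. The called members are alike in sequence and went together over the arrays (Pearson's r 0.952, and 0.814 with each group's mean taken away). Outside the family, miR-181d-5p had a higher r with miR-18b-5p (0.972). Binding of one called member to the other's probe was not tested. MiR-181b-5p was 2.21-fold higher. The size of the miR-181d-5p difference, 0.68 on the log2 scale, is uncertain, because 2 of 3 WT arrays did not exceed the limit for its probe. MiR-181a-5p was higher on every Tg79 array than on any WT array but did not pass the test, and miR-181c-5p overlapped between the groups. In Tg9 no member passed.

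MiR-181b-5p (mmu-miR-181b-5p) had a log2 intensity of 7.84, 7.39 and 7.64 on Tg79-1, Tg79-2 and Tg79-3, against 6.37, 6.64 and 6.42 on WT1, WT2 and WT3. Every Tg79 array lay above every WT array, and the closest pair, Tg79-2 and WT2, shares a slide. The means were 7.62 ± 0.22 in Tg79 and 6.48 ± 0.14 in WT (SD, n = 3 each). The log2 difference was 1.14 ± 0.22 (SE, 95% interval 0.64 to 1.65), with a limma adjusted p of 0.0387 over 501 miRNAs. On all 9 arrays the probe was above the limit, at 2.29 to 2.56 times it in Tg79 and 1.43 to 1.67 times it in WT. Against WT2 alone, on the same slide, the difference was 0.98 (0.75 to 1.19 for the 3 Tg79 arrays, with no test).

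MiR-181d-5p (mmu-miR-181d-5p) had a log2 intensity of 6.87, 6.79 and 6.65 on the Tg79 arrays, against 5.98, 6.23 and 6.06 on the WT arrays. These groups did not overlap either, and WT2 was again the highest WT array. The means were 6.77 ± 0.11 in Tg79 and 6.09 ± 0.13 in WT (SD, n = 3 each), with a log2 difference of 0.68 ± 0.13 (SE, 95% interval 0.38 to 0.97, limma adjusted p = 0.0387). The probe was above the limit on 3 of 3 Tg79 arrays and on 1 of 3 WT arrays, WT2, so the WT level is close to background. The difference was 1.30 with a normexp offset of 10 in place of 50, and 1.48 with the authors' values. Within slide 2 the difference from WT2 was 0.54 (0.41 to 0.64, with no test).

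MiR-181a-5p (mmu-miR-181a-5p), the brightest of the 4 probes, had a log2 intensity of 9.28, 8.74 and 9.79 on the Tg79 arrays, against 7.95, 8.57 and 8.36 on the WT arrays. The lowest Tg79 array was 0.17 above the highest WT array, and the Tg79 arrays differed more from each other than for the other members. The means were 9.27 ± 0.53 in Tg79 and 8.29 ± 0.31 in WT (SD, n = 3 each). The log2 difference of 0.98 ± 0.37 (SE, 95% interval 0.12 to 1.83) did not pass (limma adjusted p = 0.163), and it was 0.37 with the authors' values. In that table the median of all miRNAs was -0.81, and relative to the median of all miRNAs the difference was 1.18 there and 1.01 here.

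MiR-181c-5p (mmu-miR-181c-5p) had a log2 intensity of 6.28, 6.37 and 6.50 on the Tg79 arrays, against 6.11, 6.31 and 6.20 on the WT arrays. Tg79-1 lay below WT2, and the log2 difference was 0.17 ± 0.09 (SE, 95% interval -0.04 to 0.38, limma adjusted p = 0.273). The probe stood at 0.974 to 1.24 times the limit in Tg79 and 1.12 to 1.25 times it in WT, so it was close to background in both groups and a difference of its RNA would be understated. With the authors' values the difference was -0.18, which was 0.63 above the median of all miRNAs in that table.

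**Figure D1:**
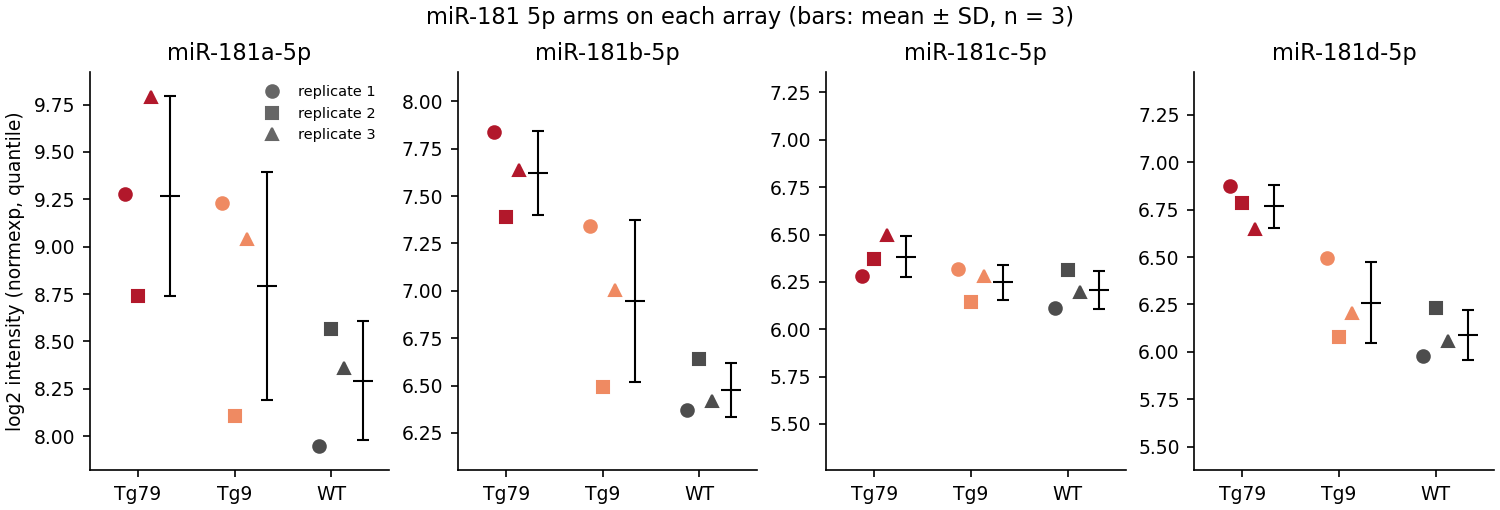
Log2 intensity (vertical axes) of the 4 miR-181 5p arms on each array of Tg79, Tg9 and WT, with the replicate number as the symbol and the mean ± SD (n = 3) beside the points. For miR-181a-5p, miR-181b-5p and miR-181d-5p every Tg79 array lies above every WT array, while miR-181c-5p overlaps, and the array labelled Tg9-2 is the lowest transgenic array for each member.

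Of the 4 members 2 were called higher in Tg79, where 4.59% of all 501 tested miRNAs were called in either direction, 3.59% higher and 0.998% lower. The groups did not overlap for 3 of 4 members, higher in Tg79, against 13% of all tested miRNAs higher and 16.4% lower without overlap. At an unadjusted p under 0.05 were 3 of 4 members, against 24.6% of all tested miRNAs. The median of the 4 log2 differences was 0.83, beside a median of -0.04 over all tested miRNAs. MiR-181d-5p and miR-181b-5p stood at places 9 and 10 of 501 by p. Both calls were lost with the replicate number as a block (limma adjusted p 0.0894 for miR-181b-5p and 0.0938 for miR-181d-5p), with no filter (0.0782 and 0.0653) and with slide as a factor (0.53 for each, at differences of 0.98 and 0.54). The slide fit compares Tg79 with WT2 alone, so its differences are those within slide 2. Both calls were also lost without Tg79-1, Tg79-2, the array labelled Tg9-3, WT1, WT2 or WT3, and only 1 was kept without Tg79-3. With the deposited background column the differences of miR-181b-5p and miR-181d-5p were -0.0226 and -0.00352 and that of miR-181a-5p was -1.10. There the SE of miR-181d-5p was 0.0078, so its values hardly varied between arrays. The SE was 0.43 for miR-181b-5p and 1.18 for miR-181a-5p.

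In Tg9 against WT each of the 4 members had a positive difference, smaller than in Tg79, and each overlapped between the groups. MiR-181a-5p had a log2 intensity of 9.23, 8.10 and 9.04 on Tg9 arrays 1 to 3, against 7.95 to 8.57 on the WT arrays. MiR-181b-5p had one of 7.34, 6.49 and 7.004 on the same Tg9 arrays, against 6.37 to 6.64 on the WT arrays. For both, 2 of these arrays were above the WT range and the one labelled Tg9-2 was inside it, although miR-17-5p was near WT on Tg9-2 and Tg9-3 alike.

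The log2 difference of miR-181b-5p was 0.47 ± 0.22 (SE, 95% interval -0.04 to 0.98), with a limma adjusted p of 0.99. That of miR-181a-5p was 0.50 ± 0.37, that of miR-181d-5p 0.17 ± 0.13 and that of miR-181c-5p 0.04 ± 0.09, all with an adjusted p of 0.99. Limma called 0% of the 501 miRNAs in Tg9, with 3 (0.599%) at an unadjusted p under 0.05, none of them a member. Of the tested miRNAs 3.59% were higher and 2% lower in Tg9 without overlap, against 0 of 4 members in either direction.

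Within slide 1 the mean difference of the Tg9 arrays from WT1 was 0.84 for miR-181a-5p (0.15 to 1.28), 0.57 for miR-181b-5p (0.12 to 0.97), 0.28 for miR-181d-5p (0.10 to 0.52) and 0.13 for miR-181c-5p (0.03 to 0.21), with no test. Without the arrays labelled Tg9-2 and Tg9-3 the differences from WT were 0.94, 0.84, 0.41 and 0.11 for the same 4, and 0 were called. This last fit rests on 1 Tg9 array, Tg9-1, whose spread is taken from the other groups.

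The mean of both founder lines against WT, the comparison named by the genotype label, lay between those of the lines. MiR-181b-5p averaged 7.28 ± 0.48 on transgenic arrays (SD, n = 6) and 6.48 ± 0.14 on WT arrays (n = 3), a log2 difference of 0.81 ± 0.19 (SE, limma adjusted p = 0.19). For miR-181d-5p the means were 6.51 ± 0.32 and 6.09 ± 0.13 in the same order, with a difference of 0.42 ± 0.11 (limma adjusted p = 0.19). MiR-181a-5p differed by 0.74 ± 0.32 and miR-181c-5p by 0.11 ± 0.08, and neither passed (limma adjusted p 0.363 and 0.585). All 4 members overlapped, against 2.2% of tested miRNAs higher and 1.6% lower without overlap. Limma called 0% of the 501 miRNAs, with 67 (13.4%) at an unadjusted p under 0.05, among them miR-181b-5p and miR-181d-5p. Without the arrays labelled Tg9-2 and Tg9-3 the difference of miR-181b-5p was 0.98, with the Tg9 mean resting on Tg9-1 alone.

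Tg79 against Tg9 sets the founder lines against each other. MiR-181b-5p was at 7.39 to 7.84 on Tg79 arrays and 6.49 to 7.34 on Tg9 arrays, and miR-181d-5p at 6.65 to 6.87 on Tg79 arrays and 6.08 to 6.49 on Tg9 arrays. Neither overlapped between the lines, where 8.98% of tested miRNAs were higher and 10.4% lower in Tg79 without overlap. The log2 difference was 0.68 ± 0.22 for miR-181b-5p (limma adjusted p = 0.241) and 0.51 ± 0.13 for miR-181d-5p (limma adjusted p = 0.156), so neither passed. MiR-181a-5p (0.48 ± 0.37) and miR-181c-5p (0.14 ± 0.09) overlapped. Limma called 0% of the 501 miRNAs, with 77 (15.4%) at an unadjusted p under 0.05, including miR-181b-5p and miR-181d-5p. Without the arrays labelled Tg9-2 and Tg9-3 the differences of miR-181b-5p and miR-181d-5p were 0.28 and 0.27. The lines lie on different slides, so line and slide can be parted only through WT1 and WT2.

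**Figure D2:**
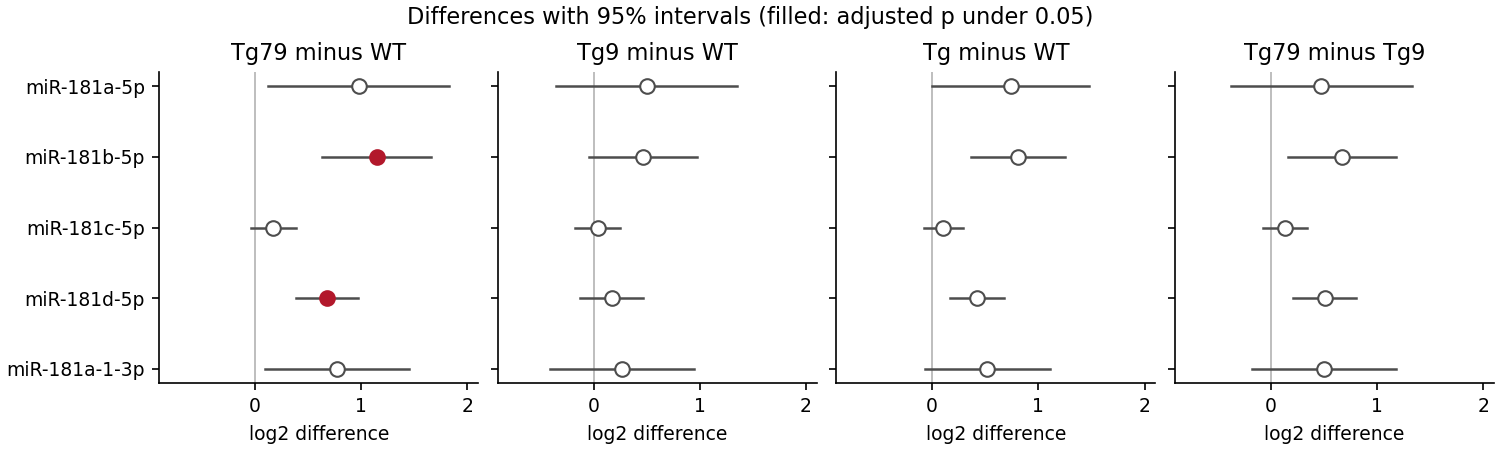
Log2 difference (horizontal axis) with its 95% interval for each member, and for miR-181a-1-3p, in the 4 comparisons, from limma. The intervals of miR-181b-5p and miR-181d-5p lie above 0 for Tg79 minus WT, for Tg minus WT and for Tg79 minus Tg9, but only those of Tg79 minus WT passed the adjusted threshold.

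The clusters were compared through the difference between 2 members on the same array, set to a WT mean of 0. This removes what an array adds to both probes, but not what depends on a probe's brightness. MiR-181b-5p minus miR-181a-5p, of the same cluster, was 0.37, 0.47 and -0.34 on the Tg79 arrays, against 0.24, -0.11 and -0.13 on the WT arrays. These overlapped, with a difference of 0.17 (exact permutation p = 0.6), so an unequal change of the a and b members was not detectable.

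MiR-181d-5p minus miR-181c-5p, of the other cluster, was 0.71, 0.54 and 0.27 on the Tg79 arrays, against -0.02, 0.04 and -0.02 on the WT arrays. The groups did not overlap, and the difference of 0.51 had an exact permutation p of 0.1, the smallest that 3 arrays against 3 allow. C and d lie 165 bases apart in the genome, and this difference did not pass after adjustment over the 6 pairs (exact permutation adjusted p = 0.15). How often other pairs of probes separate in this way was not counted. Both members of the pair are close to the limit in WT. The miR-181d-5p probe exceeded it on only 1 of 3 WT arrays, and miR-181c-5p stood at 1.12 to 1.25 times it there. With the deposited background column d minus c was -0.0176 for Tg79 minus WT. At that setting both probes hardly varied between arrays, with SEs of 0.0069 for miR-181c-5p and 0.0078 for miR-181d-5p.

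Across clusters, miR-181c-5p minus miR-181b-5p was -1.29, -0.75 and -0.87 on the Tg79 arrays, against 0.01, -0.06 and 0.05 on the WT arrays, a difference of -0.97 (exact p = 0.1). MiR-181d-5p minus miR-181b-5p was -0.58, -0.22 and -0.60 on the Tg79 arrays, against -0.01, -0.02 and 0.02 on the WT arrays, a difference of -0.47 (exact p = 0.1). In both pairs every Tg79 array lay below every WT array. The miR-181b-5p value thus moved more on these arrays than those of miR-181c-5p and miR-181d-5p, both of which lie nearer to the limit. Neither pair passed after adjustment over the 6 pairs (exact permutation adjusted p = 0.15 for each). With the authors' values d minus b was 0.24 in place of -0.47, and with the deposited background column c minus b was 0.0366. Against miR-181a-5p the difference was -0.80 for miR-181c-5p (exact p = 0.1) and -0.30 for miR-181d-5p (exact p = 0.5), and these were 1.11 and 1.09 with that column.

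With all 6 transgenic arrays against 3 WT arrays, 0 of 6 pairs passed after Benjamini-Hochberg adjustment over the pairs. The exact permutation test has 84 splits and a smallest p of 0.0119. At that p 1 pair alone could not pass the adjustment over 6 pairs, so the 0 was partly set by the number of arrays. The difference was -0.70 for miR-181c-5p minus miR-181b-5p (exact p = 0.0357, adjusted 0.107) and -0.38 for miR-181d-5p minus miR-181b-5p (exact p = 0.0357, adjusted 0.107). It was 0.32 for miR-181d-5p minus miR-181c-5p (exact p = 0.0714, adjusted 0.125) and 0.07 for miR-181b-5p minus miR-181a-5p (exact p = 0.75). For miR-181d-5p minus miR-181a-5p the sign depended on the scaling, at -0.31 here (exact p = 0.321) and 0.03 with scaling to the 75th percentile.

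**Figure D3:**
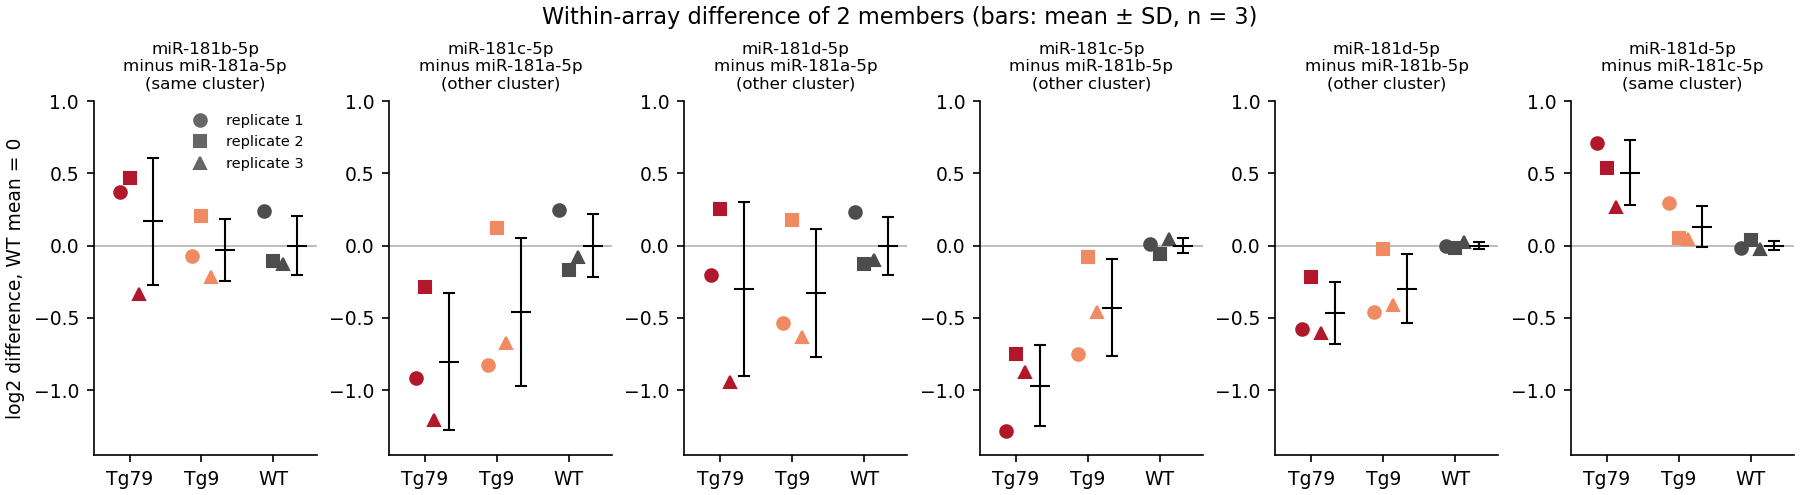
Difference in log2 intensity between 2 members on the same array (vertical axes, set to a WT mean of 0) for the 6 pairs, by array, with the mean ± SD (n = 3). MiR-181c-5p and miR-181d-5p fall below 0 relative to miR-181b-5p on every Tg79 array, while miR-181b-5p minus miR-181a-5p lies on both sides of 0.

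Over the 9 arrays the log2 intensities of the members went together, as a description across arrays that share slides and groups. Pearson's r was 0.952 for miR-181b-5p with miR-181d-5p and 0.886 for miR-181a-5p with miR-181b-5p. It was 0.866 for miR-181a-5p with miR-181c-5p, the pair nearest in sequence, and 0.725, the lowest of the 6 pairs, for miR-181c-5p with miR-181d-5p. With each group's mean taken away, r was 0.814 for b with d, 0.822 for a with b, 0.794 for a with c and 0.368 for c with d.

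The probes of the 3p arms were read as a second product of the same hairpins. Of 6 such probes 1 was tested, miR-181a-1-3p, which is cut from Mir181a-1 on chromosome 1 (chr1:137966508-137966529, plus strand). It is shown because its seed, again in capitals, differs from that of the 5p arms.
miR-181a-1-3p: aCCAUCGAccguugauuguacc

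It had a log2 intensity of 6.49, 6.49 and 7.53 on the Tg79 arrays and 6.63, 6.004 and 6.36 on the Tg9 arrays, against 5.99, 6.15 and 6.06 on the WT arrays. The Tg79 arrays lay above the WT arrays, with Tg79-3 far above the other 2. For miR-181a-5p Tg79-3 was also the highest array, without standing apart. The log2 difference was 0.77 ± 0.29 for Tg79 minus WT (SE, limma adjusted p = 0.164) and 0.27 ± 0.29 for Tg9 minus WT (limma adjusted p = 0.99), neither of which passed. It was 0.43 for Tg79 minus WT without Tg79-3. The probe was above the limit on 3 Tg79, 3 Tg9 and 1 of the WT arrays. The other 5, miR-181a-2-3p, miR-181b-1-3p, miR-181b-2-3p, miR-181c-3p and miR-181d-3p, were above the limit on 0 of 9 arrays, so the hairpins of chromosome 2 and chromosome 8 could not be followed through them.

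Outside the family, the 3 miRNAs most like each member were taken by Pearson's r of log2 intensity over the 9 arrays, among 279 candidates above the limit on all of them. For miR-181d-5p they were miR-18b-5p (0.972), miR-18a-5p (0.960) and miR-106a-5p (0.957). For miR-181b-5p they were miR-1902 (0.952), miR-106a-5p (0.933) and miR-17-5p (0.925). MiR-17-5p and miR-18a-5p are arms of the transgene, and miR-106a-5p and miR-18b-5p are arms of a paralogous cluster. Binding of the transgene's products to probes of that cluster was not tested. For miR-181a-5p they were miR-5620-3p (0.933), the probe shared by miR-486-5p and miR-3107-5p (0.883) and miR-3473c (0.867). For miR-181c-5p they were miR-125a-3p (0.947), miR-3473c (0.906) and miR-33-5p (0.890). The median r over the candidates was -0.05 for miR-181c-5p and -0.02 to -0.06 for the other members. Since the arrays fall into 3 groups, these values show likeness over groups and slides as well as between arrays.

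Other miRNAs with roles in lymphocytes were read from a list of 23, of which 22 were tested. Limma called 0 of them in any comparison. At an unadjusted p under 0.05 were 10 in Tg79 minus WT and 1 in Tg9 minus WT, against 24.6% and 0.599% of all tested miRNAs. In Tg79 minus WT 11 of 22 differences were positive, the median was -0.04 as over all tested miRNAs, and the range was -2.001 to 1.52. The 4 with the smallest p there included miR-21a-5p, a miRNA raised in many tumours, with a log2 intensity of 11.16, 12.13 and 11.74 on the Tg79 arrays and 11.83, 10.83 and 11.74 on the Tg9 arrays, against 10.39, 10.86 and 10.26 on the WT arrays. Its difference was 1.17 ± 0.34 in Tg79 (SE, limma adjusted p = 0.0911).

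The other 3 had lower Tg79 means. MiR-142-3p, abundant in blood cells, had a difference of -1.07 ± 0.31 (limma adjusted p = 0.0911). MiR-29a-3p had one of -1.62 ± 0.54 (limma adjusted p = 0.127). MiR-221-3p, a miRNA of progenitor cells, had one of -0.53 ± 0.18 (limma adjusted p = 0.131) and was above the limit on only 1 Tg79 array. The list thus held values in both directions, beside 4 positive differences of 4 for the miR-181 family. These 4 members are alike in sequence, and binding to each other's probes was not tested. The difference of miR-181c-5p was 0.17, close to background, and -0.18 with the authors' values.

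**Figure D4:**
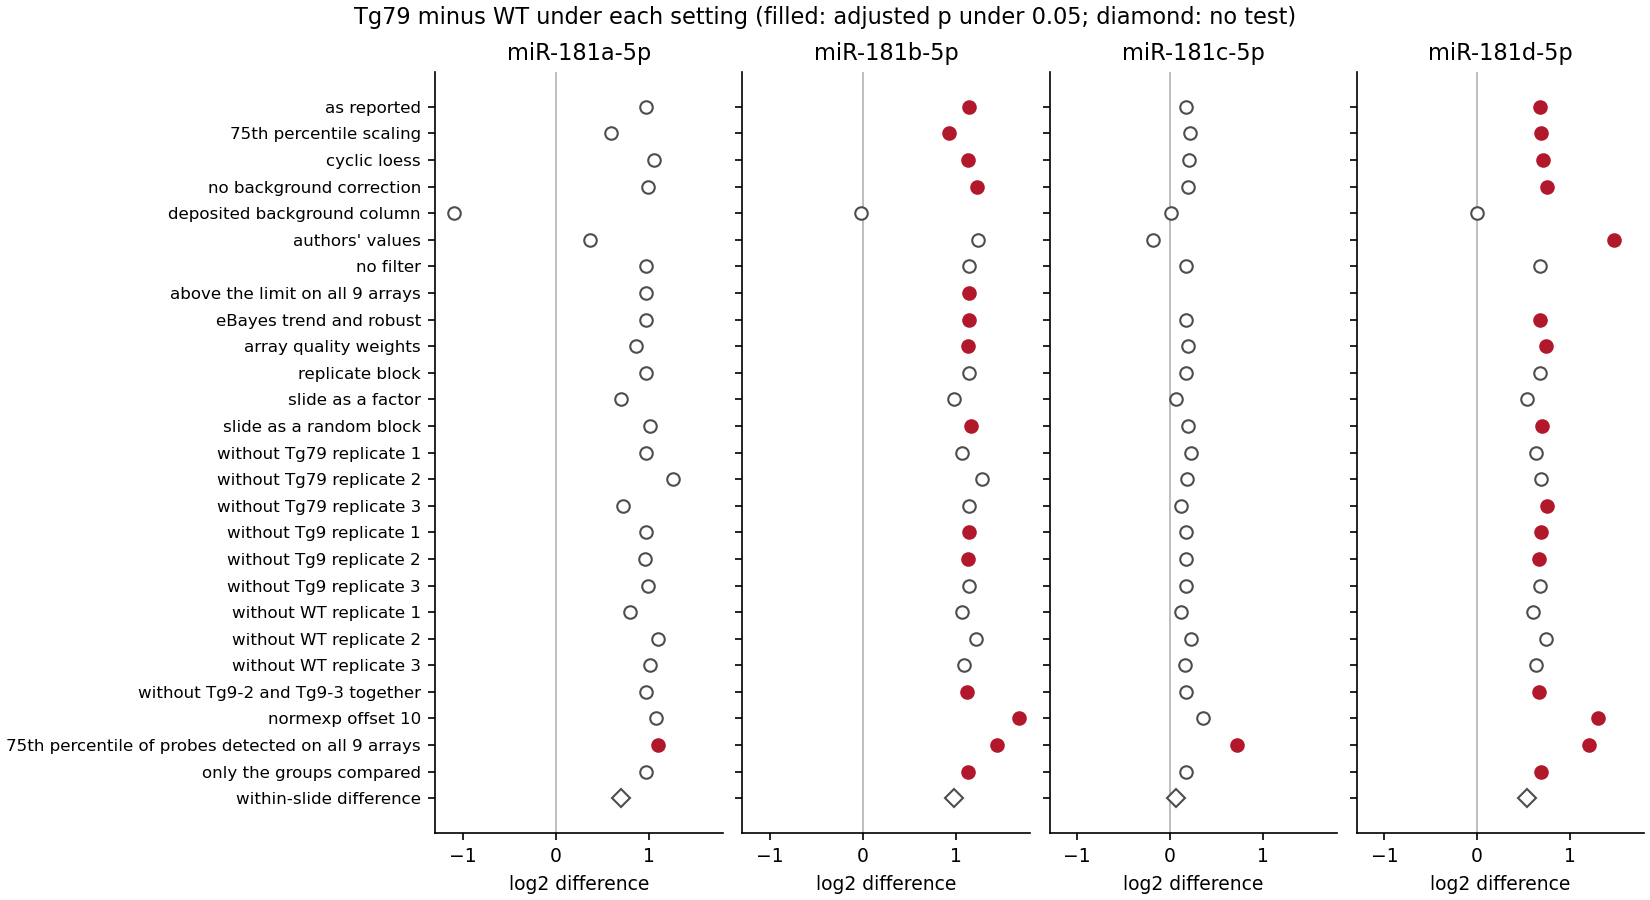
Log2 difference of Tg79 minus WT for each member (horizontal axes) under each processing setting (rows), with filled points for an adjusted p under 0.05. MiR-181b-5p and miR-181d-5p stay between 0.54 and 1.68 except with the deposited background column, where they are at about 0, and their calls come and go with the setting.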

How the data were processed

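Total RNA of splenic B cells was read on 9 one-colour miRNA arrays. The 9 mRNA arrays of the series were not used, since their probes carry no gene names. Per the file headers the deposited values are the median intensity of each spot, without normalization. The authors' deposited table holds log2 values, made in a way not given in the sources used here. Its identifiers stood 5 rows from their values and were moved back (Spearman's rho with the scanner values 1).

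In R 4.3.3 with limma 3.58.1, intensities were corrected with normexp (offset 50, foreground alone), taken to log2 and quantile normalized over 1265 miRNA probes. One model held the mean of each group, with empirical Bayes moderation, two-sided tests and Benjamini-Hochberg adjustment over 501 tested probes. Calls needed an adjusted p under 0.05. Pairs of members were compared by exact two-sided permutation. The number of arrays limits the precision.

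Members and lists were chosen with earlier results of these data known. Named miRNAs were all miR-181 arms, the 3 most alike to each member, miR-17-5p, and the 4 lymphocyte miRNAs of smallest p for Tg79 minus WT. Alternatives covered scaling, background, filter, the authors' values, variance model, replicate and slide blocks, and arrays left out. A normexp offset of 10 and the 75th percentile over probes measured on all 9 arrays were chosen after seeing the data. The model was tested on simulated data.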

Additional observations from a re-analysis of the deposited data

Results flagged for a closer look

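MiR-142-3p, 1 of 10 named miRNAs examined for a stray array, had a log2 intensity of 9.36 on Tg79-1, below the other 5 transgenic arrays. The gap to its neighbour was 0.631 of the group's range, just past the critical value of 0.625. About 1 in 20 groups passes that value by chance if its arrays are alike. This group pooled both lines, on different slides, and every Tg79 array lay below every Tg9 array (log2 difference -0.66). No member of the miR-181 family had such an array.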

How the results depend on the processing

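The members called in Tg79 minus WT, 2 as reported, moved with the processing, and the cause was not tested. They were 0 with the deposited background column, no filter, the replicate block or slide as a factor, 1 with the authors' values (miR-181d-5p) or with probes above the limit on all 9 arrays (miR-181b-5p, where 2 members were tested), and 4 with the 75th percentile of probes detected on all 9 arrays. That last scaling put the median of all miRNAs at 0.48, with 166 called higher and 19 lower of 501. Relative to it the 4 differences were 0.63, 0.97, 0.25 and 0.73 for a to d. With 1 array left out, 0 to 2 members were called. In Tg minus WT the count of 0 became 2 with array quality weights, where 22 miRNAs were called higher and 13 lower of 501. It also changed when Tg9-2 and Tg9-3 were both left out, a fit with Tg9-1 as its only Tg9 array. In Tg79 minus Tg9 the count became 2 with slide as a random block, at an estimated correlation of -0.14. At that setting 23 miRNAs were called higher and 11 lower of 501. The count stayed 0 in Tg9 minus WT under every alternative run. It also stayed 0 for the 6 pairs, where the number of splits kept 1 pair alone from passing. That 0 is therefore no sign of stability.

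Over all miRNAs, 18 were called higher and 5 lower in Tg79 as reported. No miRNA was called with the background column, no filter, the replicate block, slide as a factor, or without Tg79-2, the array labelled Tg9-3, WT1 or WT3. The counts were 44 and 35 with array weights, 16 and 88 with the authors' values (median of all -0.81), 19 and 20 with 75th percentile scaling, 25 and 14 with slide as a random block, 22 and 10 with trend and robust, 21 and 10 with an offset of 10, 8 and 3 without Tg79-1, 17 and 12 without Tg79-3, 5 and 4 without WT2, and 17 and 7 with only the groups compared or when Tg9-2 and Tg9-3 were both left out.

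Some signs turned. With the deposited background column Tg79 minus WT was -1.10 for miR-181a-5p, -0.0226 for miR-181b-5p, -0.00352 for miR-181d-5p and -1.02 for miR-181a-1-3p. Tg9 minus WT was -2.13 for miR-181a-5p and -0.00485 for miR-181a-1-3p, and Tg minus WT was -1.61 and -0.51. Tg79 minus Tg9 was -0.56 for miR-181b-5p, -0.00187 for miR-181c-5p, -0.0138 for miR-181d-5p and -1.02 for miR-181a-1-3p. The pair values there, for Tg79 and for both lines, were 1.11 and 1.63 for c minus a, 1.09 and 1.62 for d minus a, and -0.0176 and -0.0116 for d minus c. In Tg79 alone they were 0.0366 for c minus b and 0.0191 for d minus b. With the authors' values miR-181c-5p was at -0.18 in Tg79, -0.20 in Tg9 and -0.19 in both lines, and miR-181a-5p at -0.12 in Tg79 minus Tg9. The pairs were 1.11 and 0.52 for d minus a and 0.237 and 0.0176 for d minus b. With slide as a factor Tg79 minus Tg9 was -0.14 for miR-181a-5p and -0.0641 for miR-181c-5p. D minus a was 0.101 and 0.0305 with either 75th percentile and 0.225 and 0.0198 with an offset of 10. With 1 array left out, miR-181c-5p in Tg9 ranged from -0.00704 to 0.0915, b minus a in both lines from -0.0195 to 0.18, and d minus a in Tg79 from -0.58 to 0.0344.

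The replicate numbers did not pair the arrays. Deviations from the group means correlated at -0.43 to 0.38 between arrays of the same number in different groups and at -0.67 to 0.55 between other numbers. With the replicate block miR-181b-5p differed by 1.14 and miR-181d-5p by 0.68 in Tg79, neither called. Members near the limit can only be followed upwards, and the offset shrinks their differences.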
